A study of Homo sapiens with 8 samples.

Results

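The genes described here are 9 that respond to, or carry, signals of the TGF-beta and BMP family, namely the ligand genes INHBA and TGFB2, the feedback genes PMEPA1, SKIL, SMAD6 and SMAD7, and the BMP target genes ID1, ID2 and ID3. They were chosen by name among the 56638 entries of each deposited table, and all 9 were present. The RNA came from A375, an established human malignant melanoma cell line, kept in medium with serum. All groups received the plasmid pcDNA3.1(-), which was empty in the vector group or carried 1 of 3 inserts in the others. The inserts were full-length SLNCR1, a long noncoding RNA (called SLNCR1), its conserved region alone (the conserved region), and SLNCR1 lacking that region (delta-conserved). Cells were transfected 24 hours after seeding and harvested 48 hours later, and each of the 4 groups had 2 libraries. The plasmid drives its insert from a viral promoter, the transfection was transient, and the share of cells that took up plasmid is not stated in the labels. Nothing in the labels says that paired libraries are from separate cultures, and the p-values therefore measure only how far these samples spread, which may be technical.

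TGF-beta and activins bind paired receptor kinases at the cell surface that phosphorylate SMAD2 and SMAD3, whereas BMPs act through SMAD1, SMAD5 and SMAD9. The phosphorylated SMADs join SMAD4, enter the nucleus and switch on target genes, among them inhibitors of the pathway itself. In melanoma cells the pathway is known for links to invasion and to loss of melanocyte features.

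The libraries held 8222868 to 12015394 reads counted to genes, recovered from the deposited group means. Library a is the deeper of each group and library b the other. The 4 SLNCR1 and delta-conserved libraries (8222868 to 10097194 reads) were each shallower than the 4 others, so depth and these constructs cannot be told apart. In a principal component analysis of 16052 genes, component 1 held 41.28% of the variance. On it the 4 SLNCR1 and delta-conserved libraries lay at 14.24 to 26.95 and the 4 others at -20.31 to -14.07. SLNCR1 library b lay far from the rest on component 2, at 24.0 against -18.11 to 4.94 among the other 7. For the 9 genes, the differences of SLNCR1 from vector and from the conserved region that passed are therefore also given without it. SLNCR1 is listed in RefSeq as another name of LINC00673, which is not among the names in the tables, and the GENCODE gene LINC00511 spans that locus. Which exons the LINC00511 entry counts is unknown. It stood at 623 and 617 normalized counts in the vector libraries and at 859 to 1147 in the 6 libraries with a construct. Of the melanocyte lineage markers, SOX10 had 2919 to 3678 normalized counts over the 8 libraries and MITF 536 to 786, while TYR averaged under 1. The dedifferentiation markers AXL and NGFR ran from 3949 to 4822 and from 872 to 970. Of 4 endothelial markers PECAM1 was at 0 in every library, while KDR (median 13.5) and VWF (median 15.0) were not, and the list summed to 22.0 to 37.2. Of 5 keratinocyte markers DSG3 was at 0 and KRT1 averaged under 1, but KRT10 stood at 532 to 684, and the list summed to 645 to 774. PTPRC and CD3E of leukocytes averaged under 1. The 4 leukocyte markers reported here summed to 80.3 to 94.9 in vector, 20.8 to 26.0 in SLNCR1 cells, 121 to 131 in conserved-region cells and 22.1 to 31.4 in delta-conserved cells. ITGAM among them ran from 5.53 to 113 over the 8 libraries. The 6 fibroblast markers summed to 266 to 291 in vector, 261 to 267 in SLNCR1 cells, 215 to 444 in conserved-region cells and 399 to 401 in delta-conserved cells. The part of these levels in the results below was not tested.

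Promoter windows from RefSeq (GRCh38.p14, 250 bases before to 50 after each start site) were found for all 9 genes, 14 windows in all. Both strands were searched for GTCTAGAC, the palindromic SMAD box, for the short SMAD box CAGAC, and for GGCGCC, a GC-rich SMAD element known from BMP targets. None of these letter strings contains another. The 4 sequences shown are those of PMEPA1 and ID1, which were higher with 2 of the constructs, of SKIL, which moved the other way, and of SMAD6, which holds the palindrome. Each runs 5′ to 3′ on the gene's strand, starts 250 bases before the start site and stops near the first transcribed base of GENCODE, with motif letters in capitals. The windows are chr20:57711537-57711722 (minus strand) for PMEPA1, chr20:31605039-31605282 (plus) for ID1, chr3:170357465-170357677 (plus) for SKIL and chr15:66701986-66702231 (plus) for SMAD6.
PMEPA1: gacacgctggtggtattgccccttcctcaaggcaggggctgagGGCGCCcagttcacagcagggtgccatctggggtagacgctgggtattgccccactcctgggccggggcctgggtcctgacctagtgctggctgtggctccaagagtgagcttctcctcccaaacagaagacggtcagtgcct
ID1: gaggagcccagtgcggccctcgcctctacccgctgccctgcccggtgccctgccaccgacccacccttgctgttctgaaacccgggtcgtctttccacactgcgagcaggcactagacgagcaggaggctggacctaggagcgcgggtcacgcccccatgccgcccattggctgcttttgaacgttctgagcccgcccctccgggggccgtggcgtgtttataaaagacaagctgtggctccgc
SKIL: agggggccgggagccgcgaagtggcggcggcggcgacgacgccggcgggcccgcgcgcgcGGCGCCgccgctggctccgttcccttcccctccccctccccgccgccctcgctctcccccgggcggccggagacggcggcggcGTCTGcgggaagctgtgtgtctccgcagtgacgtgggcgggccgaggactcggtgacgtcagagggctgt
SMAD6: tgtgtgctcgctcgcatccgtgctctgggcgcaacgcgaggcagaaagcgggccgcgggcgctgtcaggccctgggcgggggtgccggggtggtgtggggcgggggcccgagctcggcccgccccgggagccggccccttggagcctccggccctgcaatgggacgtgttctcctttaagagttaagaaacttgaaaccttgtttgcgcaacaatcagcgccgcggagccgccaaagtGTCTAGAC
GTCTAGAC occurred in 1 of the 14 windows, beginning 12 bases before the start site of SMAD6, and in 0.202% of 35116 windows of all genes. CAGAC was found in 9 windows of 6 of the genes, against 45.3% of all windows. In SKIL it lies on the other strand, read above as GTCTG. A match to GGCGCC was in 2 windows, those shown for PMEPA1 and SKIL, and in 19.2% of all windows. The ID1 and ID2 windows held none of the 3 strings. These matches describe letters in the windows and say nothing about binding.

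In the cells, the clearest change was in PMEPA1, which was about 1.3-fold higher with SLNCR1 and with delta-conserved and not with the conserved region. ID1 moved in the same 2 groups, INHBA passed with delta-conserved, and SKIL was lower with SLNCR1. In the authors' deposited table for SLNCR1, 1 of the 9 genes passed an adjusted p under 0.05, PMEPA1, which was higher. Over all 33548 genes of that table, 0.0388% were called higher and 0.844% lower. In the authors' deposited table for delta-conserved, PMEPA1, INHBA and ID1 passed, all 3 higher, where 1.11% of 34744 genes were called higher and 2.26% in either direction. In the authors' deposited table for the conserved region, 0 of the 9 passed, where 0.0175% of 34347 genes were called. There 1 of the 9 had an unadjusted p under 0.05 (INHBA), as did 460 of the 34347 genes. Counts in single libraries were tested with limma over all 8 libraries, on log2(normalized count + 1). That scale understates the change of low genes. In bulk RNA, fewer cells that express a gene and less of its RNA per cell cannot be told apart. All 3 comparisons against vector share the same vector libraries.

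By limma, 3 of the 9 genes passed with SLNCR1, of which PMEPA1 and ID1 were higher and SKIL lower, where 3.94% of the 16052 genes tested were called higher and 7.41% lower (11.4% in all). At an unadjusted p under 0.05 there were 5 of 9, where 28.5% of all genes were, and the median log2 difference of the 9 was 0.15 against 0.00 over all genes. With delta-conserved 3 of 9 passed, PMEPA1, ID1 and INHBA, all higher, where 5.18% of genes were called higher and 5.25% lower (10.4% in all). The share of higher genes among all those called with delta-conserved was 49.7%, and 30.2% when libraries were scaled to their totals. It was 5.8% without delta-conserved library b and 11.7% without vector library a. The median of the 9 was 0.19 against 0.00 over all genes. Without a filter on low genes PMEPA1 was the only one of the 9 that limma called against vector, and without a trend in the variances none of the limma calls among the 9 held (adjusted p = 0.0871 to 0.214). With the conserved region limma called 0 of 9, where 0.00623% of genes were called. At an unadjusted p under 0.05 there was 1, against 5.46% of genes, and the median was 0.05 against 0.02. Over all genes, limma called 1823 with SLNCR1 and 1673 with delta-conserved, from 317 and 282 without vector library a to 4327 and 2814 without SLNCR1 library a. Groups of libraries that do not overlap were common over all genes. With SLNCR1 7 of the 9 genes did not overlap vector (52.6% of all genes). The number was 5 with the conserved region (41.7%) and 5 for delta-conserved (53.7%).

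**Figure D1:**
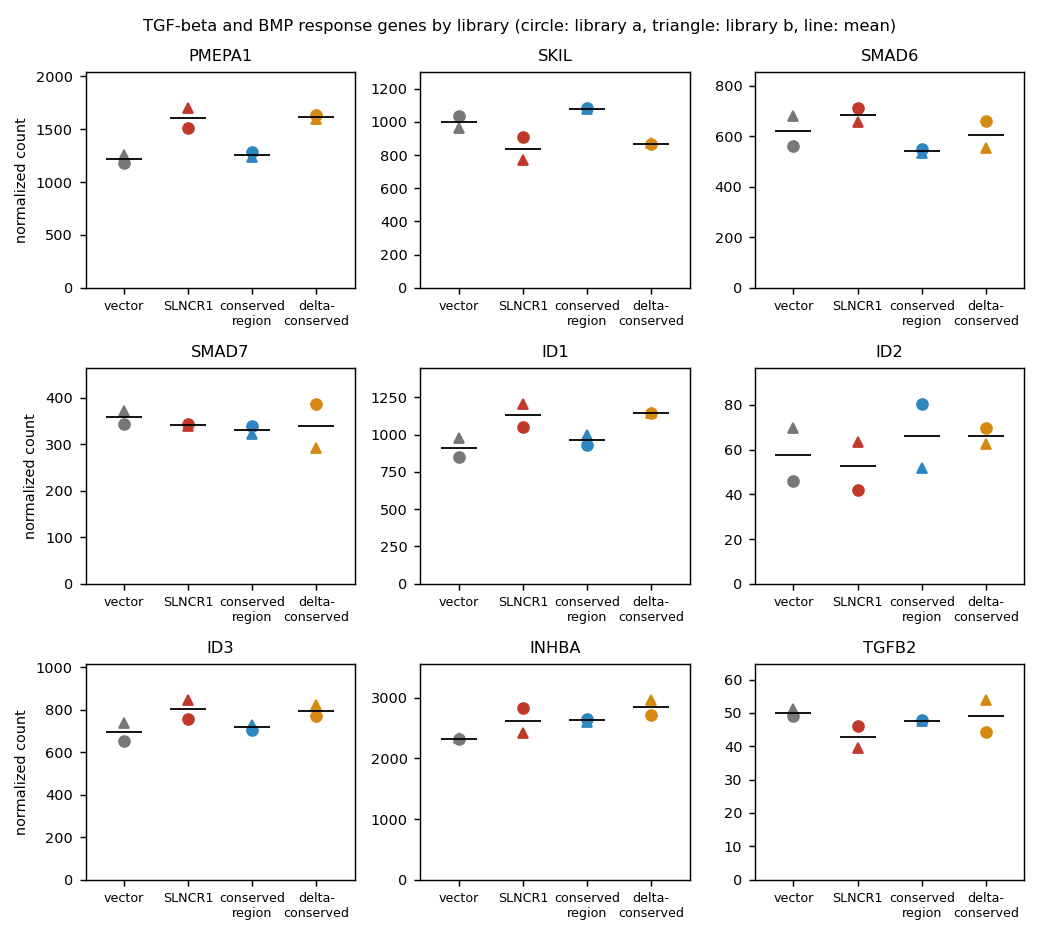
Normalized counts of the 9 genes in each library (vertical axes, each starting at 0) by group (horizontal axis), with library a as a circle, library b as a triangle and the group mean as a bar. PMEPA1 lay at 1514 to 1702 in the 4 SLNCR1 and delta-conserved libraries and at 1183 to 1280 in the 4 others.

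PMEPA1 encodes a membrane protein induced by TGF-beta that binds receptor-activated SMADs and dampens the signal. It is also known as an androgen-responsive gene. It had 1183 and 1253 normalized counts in vector libraries a and b, 1514 and 1702 in SLNCR1 cells, 1280 and 1242 in conserved-region cells and 1638 and 1601 in delta-conserved cells. The SLNCR1 and delta-conserved libraries all lay above the vector and conserved-region libraries, which overlapped each other. The means were 1218 ± 49.3 in vector (SD, n = 2), 1608 ± 133 in SLNCR1 cells, 1261 ± 26.7 in conserved-region cells and 1619 ± 25.5 in delta-conserved cells. Every library held 1251 to 1553 of its reads. In the authors' deposited tables the log2 fold change was 0.40 with SLNCR1 (adjusted p = 0.0307) and 0.41 with delta-conserved (adjusted p = 0.000156). By limma the log2 difference from vector was 0.40 ± 0.071 (SE) with SLNCR1 (adjusted p = 0.00181) and 0.41 with delta-conserved (adjusted p = 0.00188). Without SLNCR1 library b the SLNCR1 difference was 0.31 (limma adjusted p = 0.00772). Both calls against vector held whichever single library was left out. With the conserved region the limma difference was 0.05, with a 95% interval of -0.10 to 0.20.

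Between constructs, PMEPA1 was higher by limma with SLNCR1 than with the conserved region, by a log2 of 0.35 (95% interval 0.20 to 0.50, adjusted p = 0.00332), and by 0.26 without SLNCR1 library b (adjusted p = 0.0215). It was lower with the conserved region than with delta-conserved, with a log2 difference of -0.36 (interval -0.51 to -0.21, limma adjusted p = 0.00348). Leaving out conserved-region library b ended both calls (limma adjusted p = 0.0581 and 0.0711), and leaving out delta-conserved library a ended the second (limma adjusted p = 0.0609). SLNCR1 and delta-conserved differed by -0.01 (limma interval -0.16 to 0.14), a range that holds differences of either sign.

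SKIL encodes SnoN, a corepressor that binds SMADs and holds their targets down, and is itself induced by the pathway as feedback. It had 1035 and 965 normalized counts in vector, 909 and 769 in SLNCR1 cells, 1085 and 1076 in conserved-region cells and 867 and 872 in delta-conserved cells. The SLNCR1 and delta-conserved libraries were thus below both vector libraries, where for PMEPA1 they were above, and the conserved-region libraries of SKIL were above both vector libraries. SKIL averaged 839 ± 98.3 with SLNCR1 and 869 ± 2.97 with delta-conserved (SD, n = 2). Its log2 difference from vector was -0.26 ± 0.079 (SE) with SLNCR1 (limma adjusted p = 0.0438) and -0.20 with delta-conserved (limma adjusted p = 0.121). In the authors' deposited tables SKIL did not pass with SLNCR1 (log2 -0.25, adjusted p = 0.725) or with delta-conserved (log2 -0.21, adjusted p = 0.388). Without SLNCR1 library b the SLNCR1 difference was -0.14 (limma adjusted p = 0.330). The call was also lost without vector library a (0.323) or b (0.0613), conserved-region library a (0.0786) or b (0.0746), and delta-conserved library a (0.0703) or b (0.0704), all limma adjusted p-values. The delta-conserved difference passed without SLNCR1 library a (limma adjusted p = 0.0220) or b (limma adjusted p = 0.0207), and with libraries scaled to totals (limma adjusted p = 0.0427).

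Against the conserved region, SKIL was lower with SLNCR1 by limma, at a log2 of -0.37 (95% interval -0.54 to -0.20, adjusted p = 0.00466). The difference was -0.25 without SLNCR1 library b (limma adjusted p = 0.0402), and the call was lost without conserved-region library a (limma adjusted p = 0.0605). The conserved region was higher than delta-conserved by 0.31 (interval 0.15 to 0.48, limma adjusted p = 0.0204). That call was lost without conserved-region library a (limma adjusted p = 0.171) or b (0.132), or delta-conserved library a (0.153) or b (0.125). SLNCR1 and delta-conserved differed by -0.06 in SKIL, with a limma interval of -0.22 to 0.11.

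The ratio of PMEPA1 to SKIL reads within a library does not depend on how libraries are scaled. It was 1.14 and 1.30 in vector libraries a and b, 1.67 and 2.21 in SLNCR1 cells, 1.18 and 1.15 in conserved-region cells and 1.89 and 1.84 in delta-conserved cells. The SLNCR1 and delta-conserved libraries were thus all above the vector and conserved-region libraries. The ratio of ID1 to SKIL ran from 0.823 to 1.01 in vector, 1.16 to 1.57 with SLNCR1, 0.859 to 0.928 with the conserved region, and stood at 1.32 in both delta-conserved libraries. These pairs were picked after their values were known, so the ratios are given with no test.

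**Figure D2:**
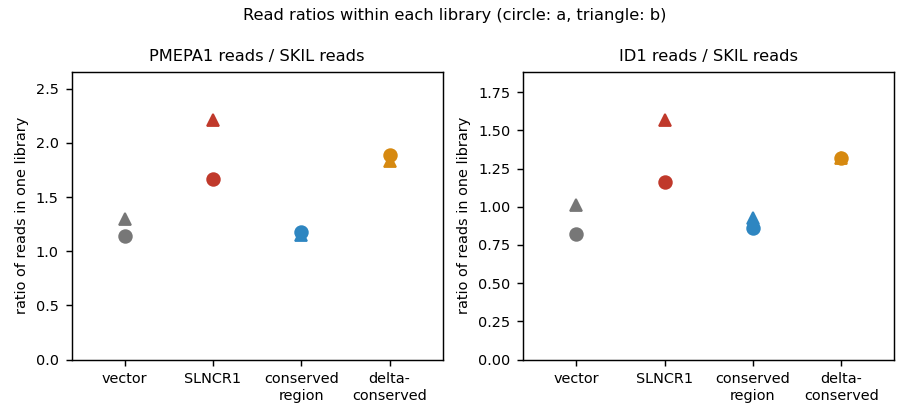
Ratio of PMEPA1 to SKIL reads (left) and of ID1 to SKIL reads (right) in each library, by group, with library a as a circle and library b as a triangle. The PMEPA1 ratio ran from 1.67 to 2.21 in SLNCR1 and delta-conserved libraries and from 1.14 to 1.30 in the others.

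SMAD6 and SMAD7 encode the inhibitory SMADs, which block receptor signaling, SMAD6 mainly that of BMPs. SMAD6 had 559 and 680 normalized counts in vector, 712 and 656 in SLNCR1 cells, 550 and 532 in conserved-region cells and 659 and 553 in delta-conserved cells. The conserved-region libraries were the lowest 2 and did not overlap those of any other group, whereas the other 3 groups overlapped one another. No difference of SMAD6 from vector passed, with limma log2 values of 0.15 for SLNCR1 (adjusted p = 0.351) and -0.19 for the conserved region (adjusted p = 0.828), and of -0.03 for delta-conserved (adjusted p = 0.900). SLNCR1 was above the conserved region by a log2 of 0.34 (95% interval 0.13 to 0.54, limma adjusted p = 0.0340), and by 0.40 without SLNCR1 library b (limma adjusted p = 0.0105). The call was lost without conserved-region library a (limma adjusted p = 0.139) or b (limma adjusted p = 0.182).

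SMAD7 had 344 and 372 normalized counts in vector, 343.8 and 339.8 in SLNCR1 cells, 339 and 322 in conserved-region cells and 387 and 291 in delta-conserved cells. The delta-conserved libraries spanned all the others. None of the 6 differences of SMAD7 passed, with limma log2 values from -0.12 to 0.05 and adjusted p-values from 0.682 to 0.966. Its standard error in each was 0.11.

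The ID genes encode proteins that bind basic helix-loop-helix transcription factors and keep them off DNA, and are classic immediate targets of BMP signaling. ID1 had 852 and 977 normalized counts in vector, 1053 and 1207 in SLNCR1 cells, 932 and 999 in conserved-region cells and 1144 and 1149 in delta-conserved cells. As with PMEPA1, the SLNCR1 and delta-conserved libraries were all higher than the other 4. Its means were 914 ± 88.4 in vector, 1130 ± 108 in SLNCR1 cells, 965 ± 47.7 in conserved-region cells and 1146 ± 3.62 in delta-conserved cells (SD, n = 2). By limma the log2 difference from vector was 0.31 ± 0.082 (SE) with SLNCR1 (adjusted p = 0.0263) and 0.33 with delta-conserved (adjusted p = 0.0162). In the authors' deposited tables the log2 fold change of ID1 was 0.31 with SLNCR1 (adjusted p = 0.684) and 0.32 with delta-conserved (adjusted p = 0.0168). The SLNCR1 call did not hold when only SLNCR1 and vector were fitted (limma adjusted p = 0.0700). The difference was 0.20 without SLNCR1 library b (limma adjusted p = 0.164), and its call was also lost without vector library a (limma adjusted p = 0.279). Leaving out vector library a ended the limma call with delta-conserved (adjusted p = 0.221), as did leaving out delta-conserved library a (0.0901) or b (0.155).

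Between constructs ID1 did not pass. The log2 difference of SLNCR1 from the conserved region was 0.22 (limma adjusted p = 0.0849) and that of the conserved region from delta-conserved was -0.25 (limma adjusted p = 0.0805). The first passed without SLNCR1 library a (limma adjusted p = 0.00332) and was 0.13 without SLNCR1 library b (limma adjusted p = 0.441). The second passed without SLNCR1 library a (limma adjusted p = 0.00976) or b (limma adjusted p = 0.00889) and with trimmed-mean scaling (limma adjusted p = 0.0483). When only the conserved region and delta-conserved were fitted, the second also passed (limma adjusted p = 0.000192). SLNCR1 and delta-conserved differed by -0.02 in ID1, with a 95% interval of -0.20 to 0.15.

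ID3 had 653 and 740 normalized counts in vector, 759 and 847 in SLNCR1 cells, 707 and 730 in conserved-region cells and 770 and 821 in delta-conserved cells. Again the SLNCR1 and delta-conserved libraries were the 4 highest, but the distance to vector was smaller than for ID1. The limma log2 difference of ID3 was 0.21 ± 0.081 (SE) with SLNCR1 (adjusted p = 0.105) and 0.19 with delta-conserved (adjusted p = 0.149), and neither passed. Both passed without SLNCR1 library a (limma adjusted p = 0.0114 and 0.0488). Without SLNCR1 library b, the library that lay apart, the SLNCR1 difference was 0.12 (limma adjusted p = 0.475). Without vector library a it was 0.12 (limma adjusted p = 0.549) and that of delta-conserved 0.11 (limma adjusted p = 0.628). SLNCR1 minus the conserved region in ID3 was 0.16, and went to 0.24 without SLNCR1 library a (limma adjusted p = 0.0352) and to 0.08 without library b (limma adjusted p = 0.686).

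ID2 was a low gene here, with 42 to 91 reads a library, so that counting alone gives a coefficient of variation of 10.5% to 15.4%. It had 45.8 and 69.7 normalized counts in vector, 42.0 and 63.6 in SLNCR1 cells, 80.5 and 51.6 in conserved-region cells and 69.6 and 62.7 in delta-conserved cells. All groups overlapped. The means were 57.8 ± 16.9 in vector, 52.8 ± 15.3 in SLNCR1 cells, 66.1 ± 20.4 in conserved-region cells and 66.2 ± 4.89 in delta-conserved cells (SD, n = 2). A change of the size seen in ID1 was not detectable at this depth and this spread between libraries. None of the 6 limma differences of ID2 passed (adjusted p = 0.450 to 0.962).

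**Figure D3:**
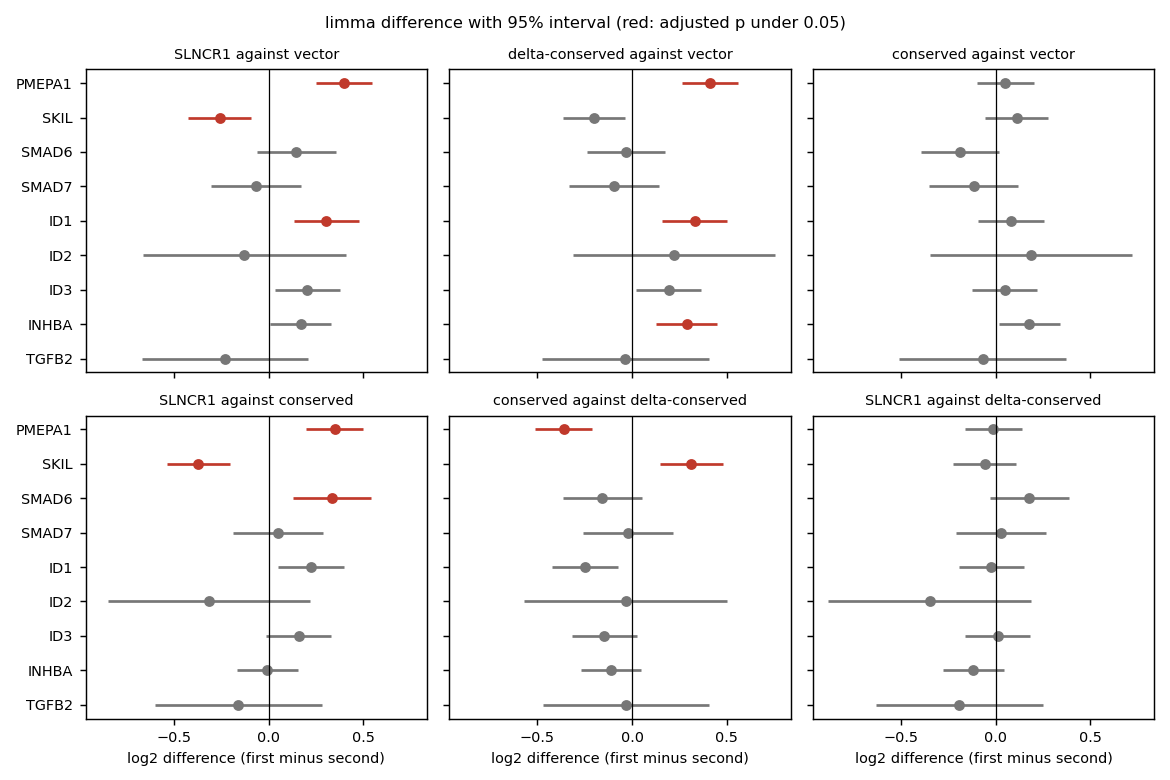
Limma log2 differences of the 9 genes (vertical axis by gene) with 95% intervals, for the comparisons against vector and between constructs. PMEPA1 stood at 0.40 with SLNCR1 and 0.41 with delta-conserved against vector, and SKIL at -0.26 and -0.20.

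INHBA encodes the subunit that forms activin A, a ligand that signals through the same SMADs as TGF-beta. It had 2317 and 2337 normalized counts in vector, 2830 and 2422 in SLNCR1 cells, 2657 and 2603 in conserved-region cells and 2719 and 2968 in delta-conserved cells. All 6 libraries with a construct were above both vector libraries, so INHBA differed from PMEPA1 and ID1 in where the conserved-region libraries lay. The means were 2327 ± 14.2 in vector, 2626 ± 289 in SLNCR1 cells, 2630 ± 38.7 in conserved-region cells and 2844 ± 176 in delta-conserved cells (SD, n = 2). With delta-conserved the difference was 0.29 (95% interval 0.13 to 0.45, limma adjusted p = 0.0224), and 0.29 in the authors' deposited table (adjusted p = 0.0101). By limma it did not pass with SLNCR1 (0.17, adjusted p = 0.149) or with the conserved region (0.18, adjusted p = 0.828). The delta-conserved call was lost without vector library a (limma adjusted p = 0.134) or b (0.0635), or delta-conserved library a (0.0513) or b (0.272). With SLNCR1 the difference was 0.28 without SLNCR1 library b and then passed (limma adjusted p = 0.0239), and 0.06 without SLNCR1 library a (limma adjusted p = 0.617). No pair of constructs differed in INHBA past the threshold, with limma adjusted p-values of 0.430 to 0.967. The library kit does not mark strand, so reads of INHBA and of the opposite-strand gene INHBA-AS1 cannot be told apart where they overlap. INHBA-AS1 was counted at 7.67 to 17.7 normalized counts a library. The same limit holds for PMEPA1 and ID2, whose antisense genes NKILA and ID2-AS1 have no entry under those names in the deposited data.

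TGFB2, which encodes a TGF-beta ligand, was also low, with 36 to 61 reads a library. It had 49.1 and 51.2 normalized counts in vector, 46.0 and 39.5 in SLNCR1 cells, 47.8 and 47.7 in conserved-region cells and 44.2 and 53.9 in delta-conserved cells. SLNCR1 libraries were below both vector and both conserved-region libraries, and delta-conserved spanned the vector libraries. No difference of TGFB2 passed, with limma log2 values from -0.23 to -0.03 and adjusted p-values from 0.515 to 0.965.

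In the direct comparisons by limma, 0 of the 9 genes passed between SLNCR1 and delta-conserved (0 at an unadjusted p under 0.05), where 0% of genes were called and 1282 of 16052 had an unadjusted p under 0.05. Between SLNCR1 and the conserved region 3 of 9 passed, PMEPA1 and SMAD6 higher and SKIL lower with SLNCR1, where 2.06% of genes were called higher and 9.48% lower. Between the conserved region and delta-conserved 2 passed, PMEPA1 lower and SKIL higher with the conserved region, where 1.12% of genes were called lower and 5.79% higher (6.91% in all). The groups did not overlap for 7 of the 9 genes between SLNCR1 and the conserved region (57.3% of all genes), for 6 between the conserved region and delta-conserved (57.4%), and for 0 between SLNCR1 and delta-conserved (33.2%).

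Levels can be compared between genes only per length. Per kilobase of GENCODE exon length in vector, ID1 was the most abundant, at 741 ± 71.7 normalized counts (SD, n = 2), followed by ID3 at 388 ± 34.3, INHBA at 280 ± 1.71, PMEPA1 at 217 ± 8.78 and SKIL at 129 ± 6.35. SMAD6 at 72.4 ± 10.0 and SMAD7 at 71.2 ± 3.95 did not differ beyond their spread. ID2 followed at 26.2 ± 7.65 and TGFB2 was lowest, at 9.73 ± 0.29. The annotation the authors counted on may give other lengths.

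Likeness was ranked among genes with a mean of at least 50 and a symbol in the reference gene names. The 3 whose log2 levels were most like those of PMEPA1 over the 8 libraries were GDE1 (Pearson r = 0.990), RCN2 (0.984) and PCOLCE (0.983). For ID1 they were PPP2R1A (0.996), HSPB1 (0.996) and TMEM147 (0.995), and for INHBA PPP3CA (0.982), HSD17B12 (0.978) and SRPK1 (0.977). Within the 9 genes, r with PMEPA1 was 0.94 for ID1, 0.88 for ID3 and -0.91 for SKIL. It was 0.51 for INHBA, 0.45 for SMAD6, 0.15 for ID2 and -0.06 for SMAD7. The points are the same 8 libraries, with their differences in depth, and the values are a description.

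Of 78 other genes of the pathway listed by role, 68 had a mean of at least 10 and were tested. With SLNCR1 limma called 2 higher and 3 lower (19 had an unadjusted p under 0.05), where 11.4% of all genes were called and 28.5% had such a p, and the median log2 difference was -0.02. With delta-conserved it called 6 higher and 1 lower (16 unadjusted), where 10.4% of all genes were called and 23.6% passed unadjusted, with a median of 0.06. With the conserved region it called 0 (3 unadjusted, against 5.46% of all genes), with a median of 0.02. By limma the shares of pathway genes called were thus at or below those of all genes. Of 77 pathway genes, the authors' deposited table for SLNCR1 called 1 lower, where 0.882% of all genes were called. Of 78, that for delta-conserved called 3 higher and 1 lower, where 2.26% of all genes were called. Both shares were above those of all genes, but that for SLNCR1 rests on 1 gene. The genes of these 2 tables, unlike those tested by limma, were not limited to a mean of at least 10. That for the conserved region called 0 of 78, where 0.0175% of all genes were called.

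Targets, 17 of the 68 genes tested, held 2 of the 5 calls with SLNCR1 and 5 of the 7 with delta-conserved. Over all genes limma called 11.4% with SLNCR1 and 10.4% with delta-conserved. KLF10, a transcription factor induced by TGF-beta, had 1444 and 1453 normalized counts in vector, 1043 and 1119 in SLNCR1 cells, 1684 and 1734 in conserved-region cells and 1008 and 1071 in delta-conserved cells. It was thus lower than vector in all 4 SLNCR1 and delta-conserved libraries and higher in both conserved-region libraries. KLF10 differed from vector by -0.42 with SLNCR1 (limma adjusted p = 0.000706) and by -0.48 with delta-conserved (limma adjusted p = 0.000262). FN1, which encodes fibronectin of the extracellular matrix, rose by 0.68 with delta-conserved (1010 and 1327 normalized counts in vector, 1977 and 1751 with delta-conserved, limma adjusted p = 0.00299). TGFBI, a secreted matrix protein, rose by 0.26 with SLNCR1 (limma adjusted p = 0.0263) and by 0.36 with delta-conserved (limma adjusted p = 0.00350). The fibroblast marker sum was highest in the same delta-conserved libraries as FN1 and TGFBI, apart from 1 conserved-region library. FN1 stood at 1252 and 1037 in the conserved-region libraries. In SLNCR1 cells, where TGFBI also rose, the sum was 261 to 267, against 266 to 291 in vector. Its part in the FN1 and TGFBI values was not tested. ADAM19, a metalloproteinase, rose with delta-conserved by 0.26 (limma adjusted p = 0.0157), and THBS1, which activates latent TGF-beta, by 0.27 (limma adjusted p = 0.0268). Of 8 libraries left out in turn, 2 ended the FN1 call with delta-conserved, 2 that of TGFBI, 4 that of ADAM19 and 5 that of THBS1. Vector library b was among those of ADAM19, and both conserved-region libraries were among those of THBS1. KLF10 calls held whichever single library was left out, whereas FN1, TGFBI, ADAM19 and THBS1 calls with delta-conserved were lost without vector library a (limma adjusted p = 0.0936, 0.0586, 0.0781 and 0.183). Those of FN1, ADAM19 and THBS1 were also lost without delta-conserved library a (limma adjusted p = 0.0504, 0.135 and 0.0587), and those of TGFBI, ADAM19 and THBS1 without delta-conserved library b (limma adjusted p = 0.0543, 0.0941 and 0.303). The TGFBI call with SLNCR1 was lost without vector library a (limma adjusted p = 0.232) or SLNCR1 library b (limma adjusted p = 0.0908).

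Among ligands TGFB1 rose by 0.24 with SLNCR1 (limma adjusted p = 0.0366), and GDF15, a stress-induced member of the family, by 0.31 with delta-conserved (limma adjusted p = 0.0366). Of 12 receptor genes the BMP receptor gene BMPR2 fell by 0.40 with SLNCR1 (limma adjusted p = 0.0245) and the activin receptor gene ACVR2B by 0.35 (adjusted p = 0.0457). The seventh call with delta-conserved was ITGB8, an integrin that activates latent TGF-beta, at 0.32 (limma adjusted p = 0.0399), named after its value was seen. None of the 16 SMAD and regulator genes passed against vector (limma, 4 at an unadjusted p under 0.05 with SLNCR1, 1 with delta-conserved and 0 with the conserved region, against 28.5%, 23.6% and 5.46% of all genes). Without vector library a the calls of TGFB1, GDF15, BMPR2, ACVR2B and ITGB8 were all lost (limma adjusted p = 0.308, 0.436, 0.285, 0.236 and 0.0504). Without SLNCR1 library b those of TGFB1, BMPR2 and ACVR2B were lost too (limma adjusted p = 0.151, 0.219 and 0.475), and the log2 differences of BMPR2 and ACVR2B shrank to -0.19 and -0.12. The GDF15 difference was 0.15 without vector library a. Without delta-conserved library b those of GDF15 and ITGB8 were lost (limma adjusted p = 0.332 and 0.314). GDF15 and ITGB8 also did not pass with libraries scaled to totals (limma adjusted p = 0.0662 and 0.0839). Of 8 libraries left out in turn, 6 ended the call of TGFB1, 2 that of BMPR2, 7 that of ACVR2B, 5 that of GDF15 and 6 that of ITGB8.

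**Figure D4:**
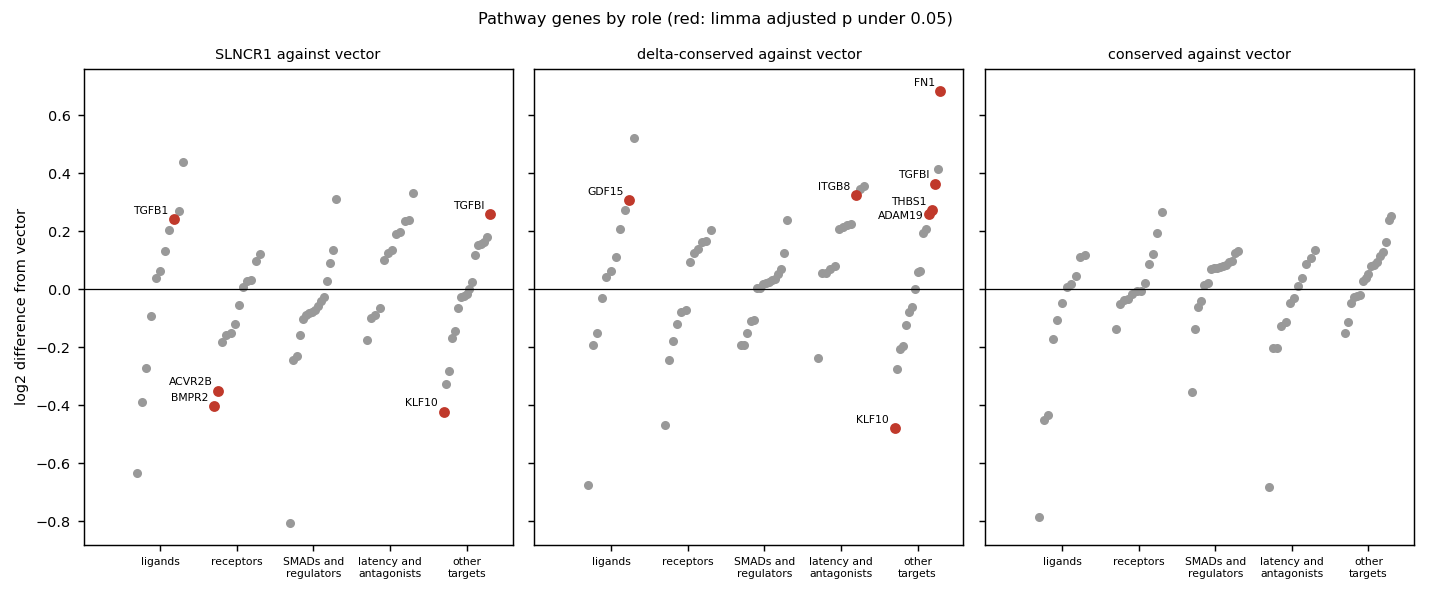
Limma log2 difference from vector (vertical axis) of 68 other pathway genes, grouped by role (horizontal axis), with 1 panel for each construct. Red points passed an adjusted p under 0.05 and are named, 5 with SLNCR1, 7 with delta-conserved and 0 with the conserved region.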

How the data were processed

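Poly(A)-selected RNA of A375 cells in 4 groups of 2 libraries was sequenced, per the labels' protocols, with a kit (NEBNext Ultra) that does not mark strand. The genome build was hg19 and the tools were STAR, featureCounts and DESeq, per the submitters' processing notes. For their versions, their settings and the annotation, nothing was given in the sources used here. Each deposited table (3, normalized separately) gives a signal per group, which the headers and values show to be the authors' mean of size-factor-scaled reads. The deposited fold is the authors' ratio of construct to vector, and its log2 was computed here. The p-values and adjusted p-values of the deposited tables are the authors' own.

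Each mean adds whole reads of 2 libraries, every library with its own step, and was solved for those reads, with a single solution for 100% of genes with reads in 3 groups and for 99.981% with the conserved region (6 genes had several and were not tested). Which replicate number a recovered library has is unknown. Reads were normalized by median-of-ratios size factors over 8 libraries. The test was limma 3.58.1 in R 4.3.3 (variances moderated with a trend, 4 residual degrees of freedom) on log2(normalized count + 1). It covered the 16052 genes whose mean reached 10, with p-values adjusted by Benjamini-Hochberg over all of them. It was checked on simulated counts, and Python 3.11.15 drew the figures. Values are mean ± SD of normalized counts.

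The 9 genes and all lists were chosen with earlier results of these data known. All 9 are described. Other pathway genes are named if limma called them, at most 6 with the lowest p a comparison. For the 3 genes with the lowest adjusted p in the authors' tables, the 3 most correlated genes with a symbol in the reference gene names are named. Alternatives were other scalings, pseudocounts, filters, no variance trend, weights, only the groups compared, a threshold of 0.01 and leaving out each library. One gene fixed in the leukocyte list is not reported here.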

Additional observations from a re-analysis of the deposited data

How the results depend on the processing

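Limma made 11 calls among the 9 genes over 6 comparisons. All 11 held with libraries scaled to totals, with trimmed-mean scaling and with weights, and none held without a trend in the variances (adjusted p = 0.0871 to 0.214). Over 187 alternatives of these calls 142 kept the call, 45 lost it and 0 changed direction. Of the calls among other pathway genes against vector, KLF10 alone passed without that trend, with delta-conserved (adjusted p = 0.0418) and not with SLNCR1 (0.0554). Of 725 alternatives of the differences that did not pass, 29 changed sign.

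Against vector, the number called with SLNCR1 went from 3 to 1 without a filter, to 0 without the variance trend, to 1 with only the groups compared, and to 1 to 4 on leaving out a library. With delta-conserved it went from 3 to 1 without a filter, 0 without the trend, and 1 to 5 on leaving out a library. Between the conserved region and delta-conserved it went from 2 to 1 without a filter, 0 without the trend, and 0 to 3 on leaving out a library. Between SLNCR1 and the conserved region it went from 3 to 0 without the trend and 1 to 5 on leaving out a library. Calls over all genes moved with these settings too. With SLNCR1 they went from 1823 of 16052 to 491 of 37933 without a filter. They went to 248 without the trend and 852 with only the groups compared. With delta-conserved they went from 1673 to 654 without a filter and 207 without the trend. Between the conserved region and delta-conserved they went from 1109 to 602 and 311. Between SLNCR1 and the conserved region they went from 1852 to 414 without the trend. At a threshold of 0.01 the authors' deposited tables called 0 with SLNCR1 in place of 1, and 1 with delta-conserved in place of 3. Counts over all genes at that threshold are not given here. Among all called genes, the share higher with the conserved region than with delta-conserved was 83.8%, and 72.3% with trimmed-mean scaling.

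Differences that changed sign did not pass before or after. With library totals SLNCR1 minus delta-conserved became 0.0165 for PMEPA1 and 0.0053 for ID1. SLNCR1 minus conserved region became 0.0069 for INHBA with totals and 0.0127 with trimmed-mean scaling. On leaving out a library, values against vector ran from -0.42 to 0.17 for ID2 with SLNCR1. With the conserved region they ran from -0.0129 to 0.18 for ID1, -0.12 to 0.50 for ID2 and -0.0385 to 0.14 for ID3. With delta-conserved they ran from -0.0735 to 0.52 for ID2, -0.17 to 0.11 for SMAD6, -0.30 to 0.11 for SMAD7 and -0.18 to 0.11 for TGFB2. SLNCR1 minus delta-conserved ran from -0.099 to 0.074 for PMEPA1, -0.12 to 0.0763 for ID1, -0.0704 to 0.0932 for ID3, -0.18 to 0.23 for SMAD7 and -0.17 to 0.0611 for SKIL. Conserved region minus delta-conserved ran from -0.35 to 0.28 for ID2, -0.23 to 0.18 for SMAD7 and -0.18 to 0.11 for TGFB2, and SLNCR1 minus conserved region from -0.12 to 0.11 for INHBA. The cause of these changes was not tested.

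No paired analysis was possible because the deposited columns are group means that carry no replicate numbers. With 2 libraries a group, leaving out 1 leaves a lone library that is assumed to vary like the other groups. Depth limits ID2 and TGFB2, and the spread between libraries limits ID2 as well.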

Other observations

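Among the other pathway genes, the constructs also differed from one another by limma. KLF10 was lower with SLNCR1 than with the conserved region by a log2 of -0.66 (adjusted p = 4.63e-06) and higher with the conserved region than with delta-conserved by 0.72 (adjusted p = 1.83e-06), and both calls held whichever library was left out. Limma called 2 of 68 genes higher and 4 lower with the conserved region than with delta-conserved, where 6.91% of all genes were called. It called 3 higher and 4 lower with SLNCR1 than with the conserved region, where 11.5% of all genes were called. FN1 and TGFBI were lower with the conserved region than with delta-conserved, at -0.71 (limma adjusted p = 0.00166) and -0.27 (limma adjusted p = 0.0225). Without delta-conserved library a neither passed (limma adjusted p = 0.0546 and 0.154), and TGFBI was also lost without 3 other libraries. TRIM33, a ubiquitin ligase that binds SMADs, and the receptor gene BMPR2 were lower with SLNCR1 than with the conserved region, at -0.31 (limma adjusted p = 0.0216) and -0.35 (limma adjusted p = 0.0387). Without SLNCR1 library b they were at -0.16 (limma adjusted p = 0.255) and -0.14 (limma adjusted p = 0.420), and both calls were lost without either conserved-region library. HTRA1, a secreted protease that limits TGF-beta family signaling, was lower with the conserved region than with delta-conserved, at -0.34 (limma adjusted p = 0.0162), and higher with SLNCR1 than with the conserved region, at 0.30 (limma adjusted p = 0.0228). LTBP3, which binds latent TGF-beta, stood at -0.26 (limma adjusted p = 0.0367) and 0.24 (limma adjusted p = 0.0367) in these comparisons. SMURF1, a ubiquitin ligase for SMADs, stood at 0.24 (limma adjusted p = 0.0334) and -0.22 (limma adjusted p = 0.0375). The HTRA1, LTBP3 and SMURF1 calls were each lost on leaving out 1 of several libraries, with limma adjusted p-values up to 0.181, 0.357 and 0.270. These included, in all 6 calls, either conserved-region library. SMURF1 did not pass with trimmed-mean scaling (limma adjusted p = 0.0553 and 0.0559). Between SLNCR1 and delta-conserved limma called 0 of the 68 genes, where 0% of all genes were called. Of the 68, 7 had an unadjusted p under 0.05, against 7.99% of all genes.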
